A study of Mus musculus with 16 samples.

Results

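Day 4 of the exit from the naive state was compared with day 0 by where in the genome the label of the methyltransferase Dnmt1 was found. The members are 4 of the 16 libraries of the series, both day 4 libraries and both day 0 libraries, chosen by the day in their labels. All 4 come from E14TG2a, a mouse embryonic stem cell line, and all carry a heterozygous N1580A knock-in of Dnmt1. Ado-6-azide (1 mM) was electroporated into every culture 3 h before its DNA was taken. Day 0 cells were in the naive medium with serum, LIF, 3 µM CHIR99021 and 1 µM PD0325901, whereas day 4 cells had been kept in serum and LIF without both inhibitors. The same series holds days 2 and 8 of this course, a triplicate of the heterozygous cells and wild-type cells that received the same compound; their values are given only where they bear on day 4 and day 0. The material is 1 cell line, and the labels do not say whether the 2 libraries of a day came from separate cultures, so a p-value here measures only the spread between these libraries. No RNA was measured, so the stated cell type could not be checked against marker genes.

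Dnmt1 is the maintenance methyltransferase. After replication it copies methylation onto the new strand at CpG sites whose parental strand is methylated, guided there by Uhrf1. Ado-6-azide is an analogue of the natural methyl donor. Where the engineered enzyme transfers its azide to a cytosine, the azide is coupled to an oligonucleotide that primes sequencing, and the read start marks the labelled CpG. CHIR99021 inhibits the kinase Gsk3 and PD0325901 inhibits the kinase Mek, and mouse embryonic stem cells kept with both have low DNA methylation, which rises when the inhibitors are withdrawn.

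The files list CpG positions with a read count. Over all chromosomes the day 0 libraries held 390158 and 407127 distinct positions from 4202118 and 4875459 reads, and the day 4 libraries held 2093130 and 2576649 positions from 12011825 and 11966027 reads. Reads per autosomal position were 10.8 and 11.99 on day 0 and 5.75 and 4.65 on day 4. The number of positions thus separates the days as completely as the day itself, and the amount of label, the depth and the complexity of a library cannot be told apart here. Every autosomal comparison below was therefore made at an equal number of 383292 randomly drawn positions per library unless it says "all positions". A value at equal number is a share of the label, so a higher share in one place and a lower total elsewhere cannot be told apart, nor can a change in every cell and a change in some of the cells. The wild-type control libraries, whose listed positions measure the background, had 9150 and 3501 positions. A wild-type triplicate of the series was not analysed here.

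Label shifted towards gene-rich megabases between day 0 and day 4. At equal numbers of positions, 637 of 2397 windows of 1 Mb (26.6%) passed edgeR's quasi-likelihood test at a Benjamini-Hochberg adjusted p of 0.05, of which 321 were higher and 316 lower on day 4. In windows with more than 40 protein-coding genes, 30 of 50 were higher and 1 was lower. In windows with 21 to 40 genes, 82 of 206 were higher and 4 lower. In windows with 3 to 5 genes, by contrast, 22 of 448 were higher and 85 lower.

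The size of the shift was moderate and followed gene number in a curve rather than a line. The median log2 change was 0.28 in the windows with more than 40 genes and 0.18 in those with 21 to 40. It was 0.01 at 11 to 20 genes, -0.07 at 6 to 10 and -0.07 at 3 to 5. Windows with the fewest genes did not extend this order. Those without any protein-coding gene had a median of 0.11, with 24 of 209 higher and 21 lower, and those with 1 or 2 genes had a median of 0.06, with 73 of 487 higher and 69 lower. Over all 2397 windows the median was 0.00. Gene-rich windows are thus where the 2 directions were most unequal, and gene-poor windows are where the changes were widest in both directions. The 209 windows without a coding gene held 3.51% and 3.50% of thinned positions on day 0. The 206 windows with 21 to 40 genes held 10.6% and 10.3%. Fewer positions widen log2 changes by counting error alone, and its part in this width was not tested.

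**Figure D1:**
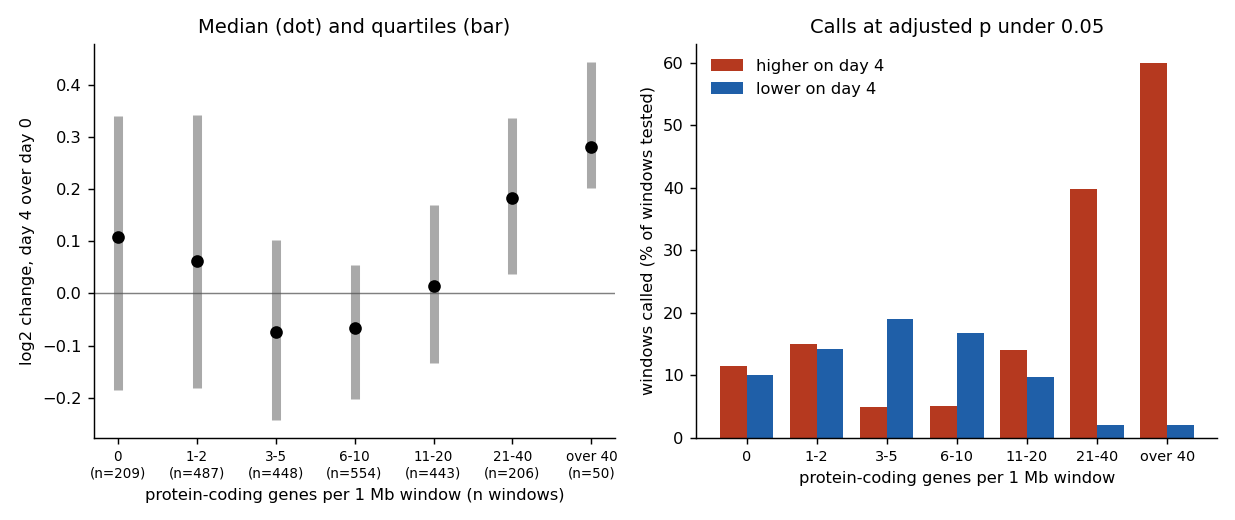
Left, median (dot) and quartiles (bar) of the log2 change of thinned positions, day 4 over day 0, in 1 Mb windows grouped by their number of protein-coding genes; right, the percentage of each group called higher or lower at an adjusted p under 0.05. The medians run from -0.07 at 3 to 5 genes to 0.28 above 40 genes.

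The 321 higher windows held 13.1% and 12.7% of the thinned positions on day 0 and 17.02% and 17.3% on day 4. The 316 lower windows held 16.9% and 17.3% on day 0 and 12.9% and 12.8% on day 4. These 4 libraries chose the windows, so the values are a description. In the day 2 libraries, which had no part in the choice, the higher windows held 15.3% and 15.5%, between day 0 and day 4, and in the day 8 libraries 16.7% and 16.4%. The lower windows held 14.2% and 13.9% on day 2 and 13.2% and 13.3% on day 8. Day 2 thus lay nearer to day 4 than to day 0 in both sets, and day 8 lay beside day 4.

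Background and saturation values moved with this result. The higher windows held 21.4% and 19.2% of the positions of the wild-type controls and the lower windows 11.9% and 13.2%, so the controls lay past day 4 in the same direction in the higher windows. The part of background label in the shift was not tested. Per window, each library's positions were taken as a percentage of those listed in any heterozygous or day library, then averaged within a day. The median of this percentage was 2.71% per higher window and 4.19% per lower window on day 0, against 21.2% and 18.98% on day 4. A position counts once however often it is labelled, and with an offset for that loss, an alternative chosen after seeing the data, 317 windows were higher and 329 lower. DESeq2's Wald test on the same counts called fewer, 41 higher and 43 lower. Leaving out any 1 of the 4 libraries left 375 to 509 calls, the fewest without day 0 replicate 2, with 387 without day 4 replicate 2.

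The higher window with the smallest p lay on chromosome 11, 97000001 to 98000000 and holds 28 protein-coding genes, among them Kpnb1, which encodes importin beta, and Tbx21, a T-cell transcription factor. It had 203 and 198 on day 0 and 355 and 330 on day 4, a log2 change of 0.76 ± 0.09 (SE; edgeR, adjusted p = 3.1e-09). The next, on chromosome 17, 29000001 to 30000000, holds Cdkn1a, the inhibitor of cyclin-dependent kinases known as p21, and the splicing factor gene Srsf3. Its positions numbered 226 and 191 on day 0 and 352 and 349 on day 4 (log2 change 0.74 ± 0.09). Neither group of libraries overlapped the other in these windows, which their choice by p largely fixes. The window on chromosome 10, 80000001 to 81000000, with 54 protein-coding genes, Gpx4 and Stk11 among them, had 264 and 260 on day 0 and 398 and 392 on day 4. Runs of neighbouring higher windows were found as well: 7 in a row on chromosome 4 from 132000001 to 139000000, and 6 in a row on chromosome 11 from 75000001 to 81000000 and on chromosome 2 from 28000001 to 34000000.

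Among the lower windows, several hold families of similar genes. The smallest p belonged to chromosome 12, 20000001 to 21000000, with 200 and 200 on day 0 and 73 and 80 on day 4 (log2 change -1.39 ± 0.13, adjusted p = 3.6e-13); 9 protein-coding gene models lie there, most of them predicted genes with Gm names. A second window of that chromosome, from 18000001 to 19000000 with Zfp996, had 91 and 97 on day 0 and 26 and 32 on day 4. The window on chromosome 2, 177000001 to 178000000 holds Zfp970 and Zfp972, zinc finger protein genes, and had 80 and 76 on day 0 and 29 and 23 on day 4. Near-identical copies can share reads, so levels in these 3 windows are uncertain. Other lower windows included chromosome 5, 104000001 to 105000000, where Spp1 (osteopontin), Ibsp and Dmp1, matrix proteins of bone, lie together; it had 295 and 326 on day 0 and 173 and 177 on day 4. The window on chromosome 10, 99000001 to 100000000, which holds the Erk phosphatase gene Dusp6, had 281 and 319 on day 0 and 184 and 174 on day 4. The one on chromosome 17, 50000001 to 51000000, which holds the germ-cell gene Dazl, had 275 and 290 on day 0 and 174 and 172 on day 4. In all of them both day 4 values lay below both day 0 values, which their choice by p largely fixes. The days did not overlap in 321 of 321 higher, 314 of 316 lower and 835 of 1760 windows not called.

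Chromosomes differed in the same comparison. Chromosome 11, rich in genes, held 5.85% and 5.78% on day 0 and 6.39% and 6.36% on day 4, and 36 of its 119 windows of 1 Mb were higher and 9 lower. Chromosome 13 held 5.05% and 5.09% on day 0 and 4.74% and 4.61% on day 4, with 4 of 118 windows higher and 28 lower. Both days' libraries were separate on 17 of the 19 autosomes, the exceptions being chromosomes 8 and 17. The share of 2 against 2 libraries cannot give an exact two-sided permutation p below 0.33, so shares are given without a test. Set against other windows with like gene numbers, the median log2 change of the windows was 0.06 on chromosome 11 and -0.07 on chromosome 13, compared with 0.14 and -0.10 before that adjustment.

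**Figure D2:**
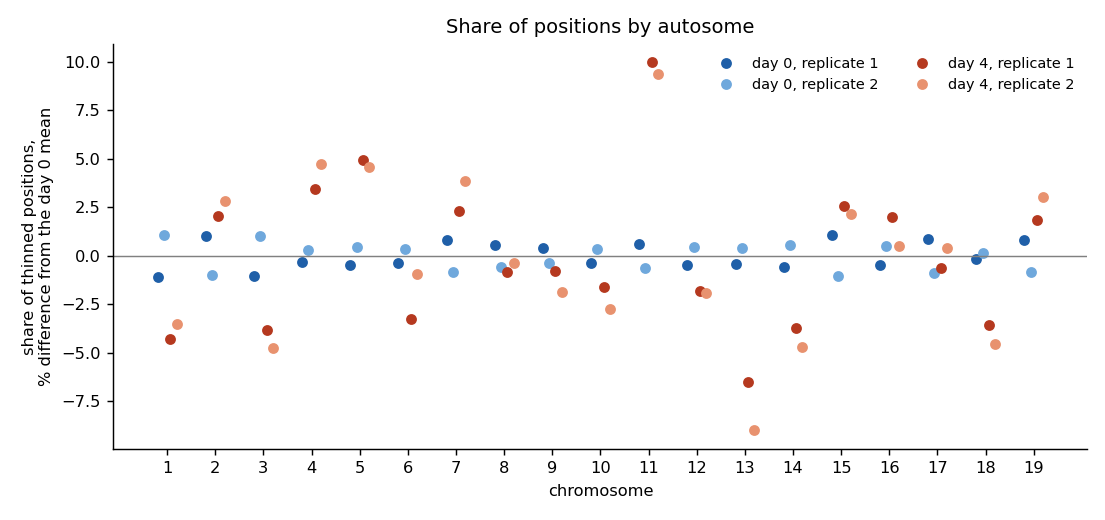
Share of thinned positions on each autosome in the 2 day 0 and 2 day 4 libraries, as the percentage difference from the mean of the day 0 libraries. Both day 4 points lie highest on chromosome 11 and lowest on chromosome 13.

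By annotation, the shift was from intergenic sequence into genes and was relatively largest in short genes. Protein-coding gene bodies, which cover 39.99% of the autosomal bases, held 50.4% and 50.4% on day 0 and 52.00% and 52.3% on day 4. Sequence outside any gene held 42.03% and 42.1% on day 0 and 40.6% and 40.4% on day 4, and gene bodies of long noncoding RNAs alone 7.54% and 7.51% on day 0 and 7.39% and 7.33% on day 4. Within the coding genes, those under 10 kb had the largest relative difference, going from 1.62% and 1.53% to 1.96% and 2.01%. Single genes of that length with enough positions to be tested did not follow this share. Of 949 such coding and lncRNA genes tested on all positions, 5 were higher and 27 lower, with a median log2 change of -0.14. Genes of 10 to 50 kb held 13.2% ± 0.191 on day 4 against 11.9% ± 0.203 on day 0 (SD, n = 2 each). Genes of 200 to 500 kb went the other way, with 10.7% ± 0.0594 on day 4 against 11.2% ± 0.110 on day 0 (SD, n = 2 each), while those over 500 kb held 5.64% and 5.74% on day 0 and 5.75% and 5.75% on day 4, where the means of the days differed by less than 1 SD of day 0 and the sign of the difference turned when reads were counted. In the wild-type controls, genes under 10 kb held 4.15% and 3.17% of all positions and genes of 10 to 50 kb 17.6% and 15.9%, so background label is richer still in short genes; its part in these shares was not tested.

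Windows of 100 kb were also grouped by how much label the heterozygous triplicate had there, as a measure of label density that neither day enters. The quintile of windows with the least label held 5.27% ± 0.0470 on day 4 against 4.59% ± 0.0369 on day 0 (SD, n = 2 each). The next quintile held 10.4% and 10.5% on day 0 and 10.6% and 10.6% on day 4. The third and the fourth quintile were lower on day 4, the latter at 27.8% and 28.1% on day 0 and 26.9% and 26.7% on day 4, and the densest quintile held 39.2% and 38.3% on day 0 and 39.8% and 40.2% on day 4. Relative to day 0, label was thus higher on day 4 at both ends of this scale and lower in the middle. Windows without any protein-coding base held 24.6% and 24.8% on day 0 and 23.3% and 23.1% on day 4.

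Around the starts of protein-coding genes the extra label of day 4 lay in the flanks and not at the start itself. Counts were summed over all starts, so a position near several starts counted for each of them. From 1 to 5 kb downstream of the starts, 13667 and 13356 thinned positions were counted on day 0 and 17488 and 18172 on day 4, 1.32 times as many. Upstream, from 5 to 1 kb before the start, the counts were 12670 and 12394 on day 0 and 15501 and 15648 on day 4, a ratio of 1.24. Further out, from 5 to 10 kb downstream, the ratio was 1.17. In the first 0.5 kb of the genes there was no such excess. The counts there were 1591 and 1239 on day 0 and 1398 and 1391 on day 4, so the 2 day 4 libraries lay between the day 0 libraries. Relative to the flanks, both day 4 libraries were lower there than both day 0 libraries. The last 0.5 kb before the start, where each library had its fewest positions, did not show this. Relative to the flanks, day 0 replicate 2 was lowest there and day 0 replicate 1 highest. The ratio of day 4 to day 0 was 1.11 in that step and 1.26 over the last 1 kb before the start. The 2 libraries of day 0 differed from each other on either side of the start more than those of day 4. Within 1 kb of either end of a coding gene lay 10.96% and 9.46% of all positions of the wild-type controls. The thinned libraries held 3.60% and 3.27% there on day 0 and 3.78% and 3.84% on day 4. Of the thinned positions, 435 and 334 on day 0 and 294 and 300 on day 4 were also listed in the controls. The part of background in this profile was not tested.

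**Figure D3:**
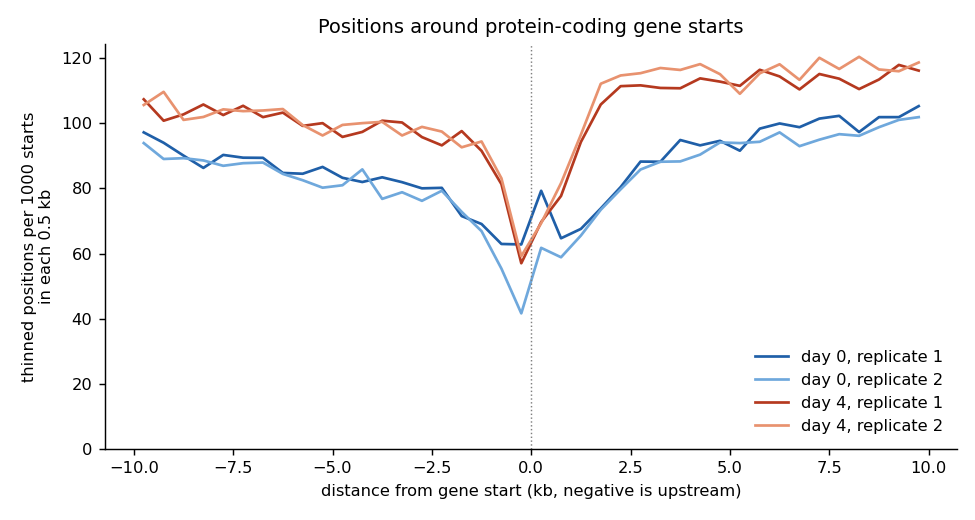
Thinned positions per 1000 protein-coding gene starts in steps of 0.5 kb from 10 kb upstream to 10 kb downstream of the start, 1 line per library. Both day 4 lines run above both day 0 lines in the flanks and meet them at the start; from 1 to 5 kb downstream day 4 had 1.32 times the positions of day 0.

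Promoters were then grouped by their sequence. Promoter sequences of 300 bases, from 250 before to 50 after the start, were taken from RefSeq (GRCm38.p6) for 20063 starts of 16437 genes. Listed positions of the day libraries lay at the C of a CpG in 16359 of 16414 cases within them. The 4 promoters shown were among those with the largest differences in either direction; each rests on a handful of positions and was chosen by those counts, so they illustrate the sequences and carry no test. Capitals mark the CpGs listed in the thinned day 4 libraries for Gm1070 and Bco1 and in the thinned day 0 libraries for Tmem267 and Dgkh. Gm1070, chr6:71293515-71293814 (+ strand, 12 CpGs), had 0 and 0 thinned positions on day 0 and 1 and 3 on day 4. Bco1, chr8:117095615-117095914 (+ strand, 9 CpGs), the gene of a carotenoid-cleaving oxygenase, had 0 and 0 on day 0 and 2 and 1 on day 4. Tmem267, chr13:119488223-119488522 (+ strand, 50 CpGs), had 4 and 3 on day 0 and 1 and 0 on day 4, and Dgkh, chr14:78644402-78644701 (- strand, 5 CpGs), the gene of diacylglycerol kinase eta, had 2 and 2 on day 0 and 0 and 0 on day 4.
Gm1070: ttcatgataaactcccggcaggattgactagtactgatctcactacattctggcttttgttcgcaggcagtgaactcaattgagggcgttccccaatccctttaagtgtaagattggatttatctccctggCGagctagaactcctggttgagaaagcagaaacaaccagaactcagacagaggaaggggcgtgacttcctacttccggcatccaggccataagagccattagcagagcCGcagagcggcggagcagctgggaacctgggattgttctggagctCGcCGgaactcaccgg
Bco1: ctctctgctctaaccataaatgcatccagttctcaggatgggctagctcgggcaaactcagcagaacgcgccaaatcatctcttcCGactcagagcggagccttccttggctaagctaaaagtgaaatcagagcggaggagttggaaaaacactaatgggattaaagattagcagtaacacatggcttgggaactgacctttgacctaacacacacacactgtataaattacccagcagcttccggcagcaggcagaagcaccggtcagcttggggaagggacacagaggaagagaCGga
Tmem267: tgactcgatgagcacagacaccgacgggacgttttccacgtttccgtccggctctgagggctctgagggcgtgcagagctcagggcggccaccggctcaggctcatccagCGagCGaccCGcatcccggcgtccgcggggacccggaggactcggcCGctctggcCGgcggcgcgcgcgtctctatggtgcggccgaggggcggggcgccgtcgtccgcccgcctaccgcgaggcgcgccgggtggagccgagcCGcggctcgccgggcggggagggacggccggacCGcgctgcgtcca
Dgkh: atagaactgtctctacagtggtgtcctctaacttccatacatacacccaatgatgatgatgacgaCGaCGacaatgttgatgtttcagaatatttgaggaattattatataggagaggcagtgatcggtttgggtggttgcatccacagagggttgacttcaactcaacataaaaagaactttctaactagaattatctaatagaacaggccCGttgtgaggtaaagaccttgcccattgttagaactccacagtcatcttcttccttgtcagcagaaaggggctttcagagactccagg

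Over all promoters the counts depended on CpG number. The 4642 promoters with 1 to 4 CpGs had 164 and 152 positions on day 0 and 191 and 211 on day 4, and the 2917 with 5 to 9 CpGs had 223 and 189 on day 0 and 263 and 283 on day 4; in both classes the day 4 libraries lay above both day 0 libraries. The 7442 promoters with 20 or more CpGs, which hold 203882 of the 288778 promoter CpGs, had 232 and 94 on day 0 and 37 and 63 on day 4. Such promoters are mostly CpG islands, which are kept unmethylated in the germline and in most cells. Per 10000 CpGs the values were 11.4 and 4.61 on day 0 and 1.81 and 3.09 on day 4, far below the 182 and 201 of the CpG-poorest class on day 4. Day 0 replicate 1 had more than the other library of its day, so the spread within day 0 is as large as the difference from day 4. In the wild-type controls 116 and 26 of all positions lay in the CpG-richest promoters and 4 and 2 in the CpG-poorest; the part of background in the day 0 counts was not tested.

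**Figure D4:**
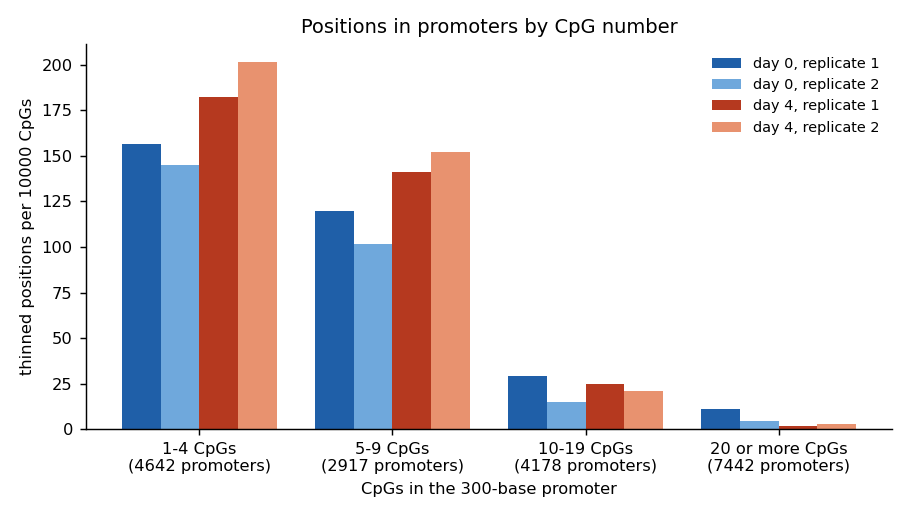
Thinned positions per 10000 CpGs in 300-base promoters grouped by their number of CpGs, 1 bar per library. The day 4 bars are the higher ones for 1 to 4 and 5 to 9 CpGs and the lower ones for 20 or more.

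At finer scale the thinned libraries resolved little. Of 15631 windows of 100 kb, 38 were higher and 50 lower (0.563% called). That count rested on the random draw: other draws of the same size called 1 window each, DESeq2 called 2, and leaving out any of the 4 libraries left 0 calls. At an unadjusted p of 0.05, 2824 windows passed. The fold changes of the 88 windows ranged from 2.08 to 7.17 for the higher and from 0.179 to 0.524 for the lower. The days did not overlap in any of the 88, which their choice largely fixes, nor in 6937 of all 15631 windows tested.

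The window called in every draw begins chromosome 9 in the assembly, 3000001 to 3100000, and had 84 and 79 positions on day 0 and 21 and 20 on day 4. It holds no protein-coding gene. The windows on chromosome 2, 98600001 to 98700000 and chromosome 14, 19400001 to 19500000 hold none either. The former had 63 and 66 on day 0 and 21 and 11 on day 4, and the latter had 51 and 60 on day 0 and 20 and 10 on day 4. Of the positions that any heterozygous or day library listed in these windows, a day 0 library listed 20.99%, 30.5% and 40.7% on average. The median over all windows was 3.50%, so label in the windows named was dense before any thinning. Repeats that the assembly holds in few copies can draw reads from many genomic copies, and levels in these windows are uncertain. Other lower windows hold a gene. In those given next the same average percentage on day 0 was 20.1% and 11.1%, so their levels are uncertain too. On chromosome 11, 3100001 to 3200000, which overlaps Sfi1, a centrosomal protein gene, the counts were 120 and 120 on day 0 and 45 and 53 on day 4, and on chromosome 10, 83400001 to 83500000, with the folate enzyme gene Aldh1l2, 95 and 117 on day 0 and 36 and 37 on day 4.

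Among the higher windows, chromosome 1, 34000001 to 34100000, overlapping the cytoskeletal linker gene Dst, had 7 and 6 positions on day 0 and 31 and 31 on day 4. The window on chromosome 8, 33800001 to 33900000, overlapping the RNA-binding protein gene Rbpms, had 18 and 14 on day 0 and 47 and 51 on day 4. The window on chromosome 17, 29000001 to 29100000, with Stk38, Srsf3 and Cdkn1a, had 6 and 3 on day 0 and 23 and 25 on day 4. The one on chromosome 5, 103700001 to 103800000, overlapping the elongation factor gene Aff1, had 5 and 1 on day 0 and 21 and 22 on day 4. In each of these windows the day 2 and day 8 libraries lay above both day 0 libraries as well, with 23 and 22 positions on day 2 and 21 and 27 on day 8 in the Dst window.

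No gene passed the test at equal numbers of positions. Of 6550 gene bodies with enough positions, edgeR called 0 (0.0%), with a smallest adjusted p of 0.132, although 1122 had an unadjusted p under 0.05. DESeq2 called 4 higher and 7 lower on the same counts. In 1 other random draw 45 were higher and 51 lower, and the fit with all 8 libraries of the day course called 136 higher and 148 lower of 7813. The genes named below were therefore taken from the fit on all positions, in which 330 of 15758 gene bodies were higher and 481 lower (5.15% called; median log2 change of all genes 0.01). Of these 811 genes, 615 could be tested at equal numbers, and all 615 had the same direction there; the positions are a subset of the same libraries, so this is not independent. The count and its balance depended on the libraries and the filter. Without day 0 replicate 1, 95 were higher and 191 lower, and without day 0 replicate 2, 62 and 128. More were higher than lower without day 4 replicate 1 (247 and 165), without day 4 replicate 2 (190 and 151) and with no filter on low counts (405 and 295). DESeq2 called 81 higher and 265 lower. In the rest of the text, "rose" and "fell" refer to this fit, counts of positions in a gene are the thinned ones, and log2 changes and adjusted p-values come from edgeR on all positions. Genes of a list that are neither its 3 smallest p-values nor in a short fixed set were chosen after their values were seen.

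The 8 genes that rose with the smallest p were Dlg2, Nrxn3, Csmd3, Rbpms, Foxp2, Cntnap2, Lsamp and Bicral. Dlg2, a postsynaptic scaffold gene (chromosome 7, 90476188 to 92449246), had 74 and 79 positions on day 0 and 168 and 142 on day 4 (log2 change 0.82 ± 0.10 (SE), adjusted p = 3.8e-07). Nrxn3, which encodes a presynaptic adhesion protein, had 70 and 91 on day 0 and 146 and 134 on day 4 (log2 change 0.82 ± 0.11 (SE), adjusted p = 7.9e-07). Csmd3, a giant transmembrane protein gene, had 22 and 24 on day 0 and 52 and 43 on day 4 (log2 change 1.30 ± 0.18 (SE), adjusted p = 3.9e-06). In these 3 genes each day 4 library lay well above both day 0 libraries, a separation that the naming rule required. Foxp2, a forkhead transcription factor gene, had 11 and 14 on day 0 and 46 and 42 on day 4 (log2 change 1.62 ± 0.24 (SE), adjusted p = 7.4e-06). Cntnap2, a neurexin-family gene, had 83 and 79 on day 0 and 141 and 151 on day 4. Lsamp, an IgLON adhesion gene, had 92 and 112 on day 0 and 153 and 188 on day 4. Shorter genes in the same group were Rbpms, with 31 and 16 on day 0 and 61 and 71 on day 4 (log2 change 1.33 ± 0.19 (SE)), and Bicral, a subunit gene of a chromatin remodelling complex, with 13 and 8 on day 0 and 38 and 33 on day 4. None of these calls was lost when 1 library was left out.

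Of the 8 genes that fell with the smallest p, most held more than 200 positions in each day 0 library. Wwox, an oxidoreductase gene that spans a common fragile site (chromosome 8, 114439635 to 115352712), had 449 and 488 positions on day 0 and 322 and 331 on day 4 (log2 change -0.64 ± 0.05 (SE), adjusted p = 1.9e-12). Sfi1, on the proximal end of chromosome 11, had a log2 change of -1.62 ± 0.13 (SE), adjusted p = 2e-12. It overlaps a 100 kb window whose label was dense on day 0, and its level is uncertain. Sox5, a SoxD transcription factor gene, had 321 and 328 on day 0 and 213 and 207 on day 4. Foxp1, a relative of Foxp2, had 244 and 257 on day 0 and 189 and 173 on day 4 (log2 change -0.65 ± 0.07 (SE), adjusted p = 8e-09). Foxp1 and Foxp2 thus moved in opposite directions. Ttn, the gene of the sarcomere protein titin, had 178 and 205 on day 0 and 103 and 130 on day 4 (log2 change -0.86 ± 0.09 (SE), adjusted p = 8.9e-10). Of the adhesion genes, Tenm3 had 362 and 372 on day 0 and 247 and 265 on day 4, and Cdh13 had 410 and 398 on day 0 and 286 and 320 on day 4. Prkce, the gene of protein kinase C epsilon, had 252 and 278 on day 0 and 178 and 185 on day 4. The naming rule required both day 4 libraries to lie below both day 0 libraries, so that separation in all 8 genes is no result. All 8 changes stayed negative when any 1 library was left out.

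**Figure D5:**
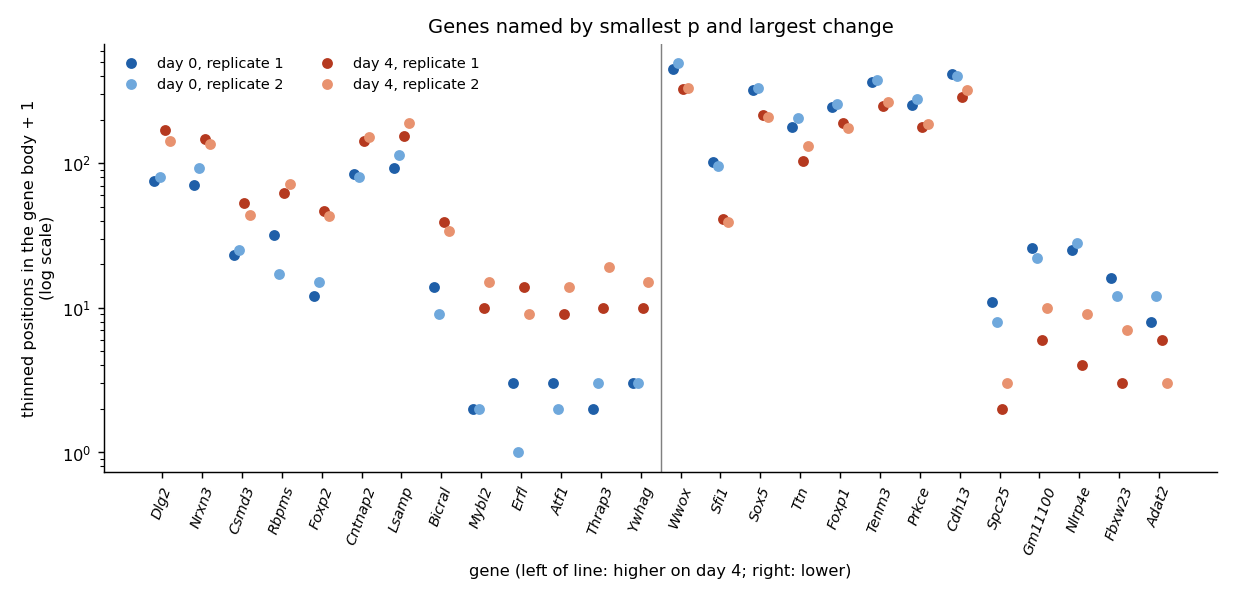
Thinned positions plus 1 in the gene body (log scale) of each library for the genes with the smallest p and the largest change in the fit on all positions. Left of the line both day 4 points lie above both day 0 points, right of it below them, which the naming rule largely fixes.

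The largest changes were in smaller genes with few positions. Mybl2, which encodes the cell-cycle transcription factor B-Myb, had 1 and 1 positions on day 0 and 9 and 14 on day 4 (log2 change 3.42 ± 0.65 (SE), adjusted p = 0.00062). Atf1, a CREB-family factor gene, had 2 and 1 on day 0 and 8 and 13 on day 4 (log2 change 2.68 ± 0.58 (SE), adjusted p = 0.00257). Thrap3, an RNA-processing factor gene, had 1 and 2 on day 0 and 9 and 18 on day 4. Ywhag, a 14-3-3 protein gene, had 2 and 2 on day 0 and 9 and 14 on day 4. Erfl had 2 and 0 on day 0 and 13 and 8 on day 4. None of these higher genes held enough positions to be tested at equal numbers. They passed the filter on low counts only through their day 4 positions, so their calls are a description. On the other side, Spc25, a kinetochore subunit gene, had 10 and 7 on day 0 and 1 and 2 on day 4 (log2 change -2.19 ± 0.47 (SE), adjusted p = 0.00231). Nlrp4e, an NLR-family gene of oocytes, had 24 and 27 on day 0 and 3 and 8 on day 4 (log2 change -2.002 ± 0.27 (SE), adjusted p = 1.2e-06). Fbxw23 had 15 and 11 on day 0 and 2 and 6 on day 4, and the predicted gene Gm11100 had 25 and 21 on day 0 and 5 and 9 on day 4. Adat2, a tRNA deaminase subunit gene, had 7 and 11 on day 0 and 5 and 2 on day 4. The calls of Nlrp4e and Gm11100 held in all 4 fits with 1 library left out, and that of Mybl2 in the 3 fits that tested it. Each of the other calls was lost when at least 1 library was left out, with an adjusted p of up to 0.139 for Atf1 without day 0 replicate 2, 0.102 for Thrap3 without day 0 replicate 1 and 0.648 for Spc25 without day 4 replicate 2.

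Long adhesion and synaptic genes, as a list, were called in both directions. Of 39 tested, 17 rose and 4 fell, with a median log2 change of 0.25 against 0.01 over all genes, of which 5.15% were called. The list was drawn up with earlier results of these data known. Summed over the list, thinned positions numbered 3876 and 3961 on day 0 and 4363 and 4352 on day 4. Long genes hold more positions and are called more often: of 221 genes over 500 kb, 45 rose and 40 fell. Beside the genes above, Dpp10, a potassium channel auxiliary subunit gene, had 39 and 37 on day 0 and 84 and 75 on day 4 (log2 change 0.90 ± 0.15 (SE), adjusted p = 6.3e-05). Mdga2, whose product binds neuroligin, had 26 and 20 on day 0 and 43 and 50 on day 4. Cadm2, a synaptic adhesion gene, had 19 and 36 on day 0 and 61 and 62 on day 4. The call of Dpp10 held without any 1 library, that of Mdga2 was lost without day 0 replicate 2 (adjusted p = 0.104) and that of Cadm2 without day 0 replicate 1 (adjusted p = 0.243). The 4 that fell were Cdh13, Csmd2, Tenm3 and Tenm4. The 3 Csmd genes did not move together: Csmd1 and Csmd3 rose, and Csmd2 fell, with 215 and 178 on day 0 and 159 and 152 on day 4. Without day 0 replicate 1 the calls of Csmd1 (adjusted p = 0.398) and Csmd2 (adjusted p = 0.597) were lost; Csmd1 was also lost without day 0 replicate 2 and Csmd2 without either day 4 library. Teneurins, which are trans-synaptic adhesion proteins, gave 224 and 230 on day 0 and 165 and 150 on day 4 for Tenm4 (log2 change -0.57 ± 0.07 (SE), adjusted p = 3.8e-07) and 217 and 224 on day 0 and 229 and 217 on day 4 for Tenm2 (log2 change -0.06 ± 0.07 (SE), adjusted p = 0.734).

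Genes of the FGF and MAPK pathway, the pathway that PD0325901 blocks in the naive medium, had 365 and 410 positions on day 0 and 459 and 516 on day 4 in sum. Of 25 tested, 3 rose and none fell, against 5.15% called in either direction over all genes, with a median log2 change of 0.31. Spred2, an inhibitor of Ras signalling, had 17 and 15 on day 0 and 37 and 46 on day 4 (log2 change 1.24 ± 0.22 (SE), adjusted p = 0.00024). Etv5, an ETS factor that the pathway induces, had 5 and 6 on day 0 and 15 and 20 on day 4 (log2 change 1.61 ± 0.35 (SE), adjusted p = 0.00279). Grb2, the adaptor that links receptors to Sos, had 4 and 10 on day 0 and 20 and 21 on day 4 (log2 change 1.25 ± 0.35 (SE), adjusted p = 0.0224). The calls of Etv5 and Grb2 were lost without day 0 replicate 1, with adjusted p-values of 0.0964 and 0.401, and that of Grb2 also without day 4 replicate 2. That of Spred2 held without any 1 library. The receptor gene Fgfr1 had 19 and 16 on day 0 and 23 and 21 on day 4, and Fgfr2 had 45 and 41 on day 0 and 28 and 40 on day 4, and neither passed the test. The kinase gene Braf had 12 and 30 on day 0 and 21 and 27 on day 4.

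In the Wnt pathway, which CHIR99021 stimulates by inhibiting Gsk3, 1 of 31 tested genes rose and none fell, a share below the 5.15% called over all genes. It was Tcf7l1, the transcriptional repressor that beta-catenin relieves in these cells, with 36 and 35 on day 0 and 62 and 73 on day 4 (log2 change 0.84 ± 0.16 (SE), adjusted p = 0.0004), and this call held without any 1 library. The target kinase gene Gsk3b had 21 and 23 on day 0 and 35 and 32 on day 4 (log2 change 0.40 ± 0.21 (SE), adjusted p = 0.295). Ctnnb1, the gene of beta-catenin, had 9 and 9 on day 0 and 5 and 7 on day 4. Axin2, a common target gene, had 14 and 14 on day 0 and 11 and 14 on day 4. The list's median log2 change was 0.07, and its thinned positions summed to 577 and 546 on day 0 and 620 and 660 on day 4.

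Of 22 genes of the methylation machinery itself, 1 was called (4.55%), a share near the 5.15% over all genes. Dnmt1, the enzyme that writes the label, had 23 and 25 on day 0 and 23 and 25 on day 4 (log2 change 0.17 ± 0.21 (SE), adjusted p = 0.722), the same counts on both days. Dnmt3a and Dnmt3b, the de novo methyltransferase genes, had 41 and 32 on day 0 and 41 and 36 on day 4 (log2 change -0.13 ± 0.18 (SE), adjusted p = 0.761) and 10 and 14 on day 0 and 13 and 18 on day 4 (log2 change -0.17 ± 0.31 (SE), adjusted p = 0.829). Dnmt3l, their cofactor, had 9 and 3 on day 0 and 5 and 7 on day 4. Uhrf1, which brings Dnmt1 to hemimethylated sites, had 4 and 2 on day 0 and 11 and 6 on day 4 (log2 change 1.19 ± 0.48 (SE), adjusted p = 0.134). Tet1 and Tet2, which oxidise methylcytosine, had 19 and 16 on day 0 and 29 and 32 on day 4 (log2 change 0.26 ± 0.24 (SE), adjusted p = 0.606) and 17 and 11 on day 0 and 10 and 8 on day 4 (log2 change -0.51 ± 0.30 (SE), adjusted p = 0.349). None of these genes passed the test. The called gene was Usp7, a deubiquitinase that binds Dnmt1, with 11 and 8 on day 0 and 24 and 21 on day 4 (log2 change 0.92 ± 0.29 (SE), adjusted p = 0.0480); this call was lost without day 0 replicate 2 (adjusted p = 0.358), without day 0 replicate 1, without day 4 replicate 2 and with a replicate block, among others.

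Several short genes had no position at all on day 0. Prdm14, a regulator of naive pluripotency that keeps methylation low, had 0 and 0 thinned positions on day 0 and 8 and 2 on day 4; of all positions, 27 and 30 were listed on day 4. Against 3 counts summed over the 2 day 0 libraries, assumed as an upper limit for a count of 0, this is at least 3.24-fold higher (edgeR, adjusted p = 0.00603). The folds given in this way make no allowance for the error of the day 4 counts. Neat1, the noncoding RNA that builds paraspeckles, had 38 and 50 of all positions on day 4 and was at least 5.01-fold higher. Cdkn1a, Trp53cor1 and Mdm2, all induced by p53, were at least 3.30-fold, 5.40-fold and 3.19-fold higher; Cdkn1a and Trp53cor1 are neighbours, so they are not separate observations. Ywhaz, a 14-3-3 protein gene, was at least 3.70-fold higher. These genes entered the test only through their day 4 positions, so their calls are a description. The calls of Prdm14, Cdkn1a, Mdm2 and Ywhaz were lost without day 0 replicate 1 and without day 0 replicate 2. No other fit with 1 library left out tested them. Nanog, another naive factor, was also listed at 0 in both day 0 libraries, and with 9 and 8 of all positions on day 4 it was too low to test. Among the other naive genes, Esrrb had 35 and 33 on day 0 and 45 and 67 on day 4 (log2 change 0.51 ± 0.17 (SE), adjusted p = 0.0598), Tfcp2l1 3 and 7 on day 0 and 13 and 13 on day 4 (log2 change 1.10 ± 0.41 (SE), adjusted p = 0.106) and Stat3 22 and 17 on day 0 and 21 and 21 on day 4 (log2 change -0.26 ± 0.25 (SE), adjusted p = 0.614), and none of these passed.

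Of 38 imprinted genes tested, 5 fell and none rose (13.2%, against 5.15% called in either direction over all genes), with a median log2 change of -0.02; thinned positions in sum were 772 and 750 on day 0 and 748 and 720 on day 4. Igf2r, the growth factor receptor gene that is expressed from the maternal allele, had 48 and 44 on day 0 and 26 and 29 on day 4 (log2 change -0.75 ± 0.17 (SE), adjusted p = 0.00504), whereas Airn, the noncoding RNA that silences the paternal allele and overlaps it, had 40 and 28 on day 0 and 34 and 35 on day 4 (log2 change -0.04 ± 0.19 (SE), adjusted p = 0.947). Trappc9 had 179 and 175 on day 0 and 131 and 136 on day 4 (log2 change -0.44 ± 0.08 (SE), adjusted p = 0.00042). Peg13, a noncoding RNA inside it, had 16 and 6 on day 0 and 1 and 6 on day 4 (log2 change -1.78 ± 0.42 (SE), adjusted p = 0.00667). They share positions, and the days overlapped in Peg13. The other 2, named after their values were seen, were Peg3, a zinc finger gene, with 20 and 15 on day 0 and 17 and 7 on day 4 (log2 change -1.02 ± 0.29 (SE), adjusted p = 0.0258), and Rtl1, a retrotransposon-derived gene of the placenta, with 27 and 31 on day 0 and 22 and 11 on day 4 (log2 change -0.90 ± 0.23 (SE), adjusted p = 0.0108). Only Trappc9 of the 5 kept its call without any 1 library. Without day 0 replicate 1 the adjusted p reached 0.164 for Igf2r, 0.606 for Peg13 and 0.412 for Peg3, and without day 0 replicate 2 it reached 0.240 for Rtl1. Peg3 lost its call without any of the 4 libraries, and the other 3 each lost it in 3 of the 4 fits.

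Among lineage genes, calls were read against the 5.15% called over all genes. Of 14 endoderm genes tested, 3 fell (21.4%), all coding for basement membrane: Lama1 with 69 and 68 on day 0 and 37 and 41 on day 4 (log2 change -0.78 ± 0.14 (SE), adjusted p = 0.00022), Col4a2 with 72 and 77 on day 0 and 51 and 40 on day 4 (log2 change -0.62 ± 0.13 (SE), adjusted p = 0.00218) and Lamb1 with 37 and 34 on day 0 and 20 and 31 on day 4. Lamc1, which encodes the third chain of the same laminin, had 22 and 24 on day 0 and 37 and 45 on day 4 (log2 change 0.61 ± 0.20 (SE), adjusted p = 0.0562), the opposite sign without passing the test. Of 11 mesoderm and endothelial genes, 3 fell (27.3%). Runx1, a blood transcription factor gene, had 89 and 126 on day 0 and 73 and 71 on day 4. Cdh5, the gene of VE-cadherin, had 21 and 30 on day 0 and 12 and 11 on day 4, and Kdr, a VEGF receptor gene, had 24 and 22 on day 0 and 14 and 7 on day 4. The day 0 replicates of Runx1 stood apart, and its call was lost without day 0 replicate 2 (adjusted p = 0.488), as were those of Cdh5 (adjusted p = 0.273) and Col4a2 (adjusted p = 0.140, and also without day 4 replicate 2). Those of Lamb1 and Kdr were lost without day 0 replicate 1, with adjusted p-values of 0.261 and 0.251, without day 0 replicate 2 and without 1 of the day 4 libraries. In the neural list 1 of 12 rose, Elavl3, an RNA-binding protein gene, with 5 and 6 on day 0 and 15 and 10 on day 4, and its call was lost without either day 0 library and without day 4 replicate 2 (adjusted p of up to 0.260). None of 11 trophoblast and 13 fibroblast genes passed. Of 20 germline genes whose promoters are methylated in somatic cells, 1 fell: Tdrd1, a piRNA-pathway gene, had 29 and 25 on day 0 and 15 and 14 on day 4 (log2 change -0.78 ± 0.22 (SE), adjusted p = 0.0261). Leaving out any 1 of the 4 libraries lost that call, with an adjusted p of up to 0.288.

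Gene families gave the remaining contrasts. Hox and other Polycomb target genes had 176 and 176 positions on day 0 and 232 and 237 on day 4 in sum, with no call among 14 tested and a median log2 change of 0.27. Housekeeping and ribosomal protein genes, which are short, had 18 and 21 on day 0 and 34 and 43 on day 4 in sum; only 5 of 28 could be tested. The clustered protocadherins, neuronal adhesion genes, had 78 and 58 on day 0 and 99 and 90 on day 4 in sum and 17 of 35 rose (the background over all genes is 5.15%), but their gene bodies overlap, so most of these calls share positions. Zinc finger protein genes went the other way where called, with 2 of 177 higher and 14 lower (9.04%, against 5.15% over all genes); Zfp982 had 48 and 70 on day 0 and 29 and 24 on day 4 (log2 change -1.44 ± 0.17 (SE), adjusted p = 9.8e-08) and Zfp978 46 and 46 on day 0 and 17 and 26 on day 4 (log2 change -1.18 ± 0.18 (SE), adjusted p = 1.3e-05). Near-identical copies can share reads in this family. Among voltage-gated calcium channel genes, Cacna1c, the pore subunit of the cardiac L-type channel, fell, with 247 and 240 on day 0 and 178 and 167 on day 4 (log2 change -0.55 ± 0.07 (SE), adjusted p = 3.8e-07), and the auxiliary subunit gene Cacnb2 rose, with 25 and 25 on day 0 and 44 and 52 on day 4; the second call was lost without day 0 replicate 2 (adjusted p = 0.212), day 0 replicate 1 or day 4 replicate 2.

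Agreement between libraries depended on the measure. At equal numbers of positions, Spearman's correlation over windows of 100 kb was 0.889 between the day 0 libraries and 0.876 between the day 4 libraries, and 0.823 to 0.832 between a day 0 and a day 4 library; windows are not replicates, and these values are a description. By reads the order turned for day 0, with 0.846 between its libraries, below every pair of a day 0 and a day 4 library. The biological coefficient of variation, edgeR's estimate of spread beyond counting error, was also larger on day 0 at equal numbers of positions. Over windows of 100 kb it was 0.051 on day 0 and 0.0099 on day 4, and over windows of 1 Mb 0.027 and 0.0099. The day 0 libraries shared 19107 exact positions (4.98% of the thinned number) and the day 4 libraries 11203 (2.92%), while pairs across the days shared 3.01% to 3.09%, more than the day 4 pair. Reads per position on day 0 were higher too, and the part of library complexity in the sharing was not tested.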

How the data were processed

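Dnmt1-directed label was measured as positions of labelled CpGs in genomic DNA. Per the labels' protocols, DNA with azide was joined to a biotinylated oligonucleotide, enriched, primed from it, amplified and sequenced (TOP-seq). Per the submitters' processing notes, reads were handled with cutadapt 4.4, BWA 0.7.17-r1188 and SAMtools 1.12 on build mm10. Settings, strand and duplicate handling: not given in the sources used here. Each library's deposited table lists positions with their read counts, whole numbers and not normalized, per the file headers and values. Reads carry no molecular identifiers, so distinct positions were analysed, each counted once. SEs and p-values cover counting error and the spread between the libraries of a day, and nothing wider. That spread was estimated as small, with a common biological coefficient of variation of 0.0099 in the gene fit on all positions.

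Autosomal positions were drawn at random to 383292 per library, the number in the smallest, and summed per RefSeq gene body (GRCm38.p6, which has mm10 coordinates; 20665 protein-coding and 12408 lncRNA genes) and per window of 100 kb. A position in overlapping genes counted for each; 38.6% of the genes overlap another. Exons, islands and repeat annotations were not analysed here. Day 4 was tested against day 0 over the 4 libraries with edgeR 4.0.16 (filterByExpr, TMM, quasi-likelihood, Benjamini-Hochberg at 0.05) in R 4.3.3; DESeq2 1.42.0 was an alternative. Each SE was computed from the log2 change and its F statistic (change over the root of F). Windows of 1 Mb and all positions without drawing were alternatives to the tests stated first, and are described at length because those tests called few or no features. The same model was tested on simulated data. Python 3.11.15 with numpy 2.4.6, pandas 2.3.3 and matplotlib 3.10.9 gave counts, shares and plots.

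Named genes are, among protein-coding genes past the threshold whose day 4 libraries both lie on one side of day 0, the 8 with the smallest p and the 5 with the largest change (at least 20 thinned positions) in each direction. To these were added up to 3 called genes of any type and overlap per list, and a fixed set. As no gene was called at equal numbers, the rule was applied to the fit on all positions. The 6 smallest p-values per direction were taken for 100 kb windows. Members, lists and tests were chosen with earlier results of these data known. Replicate numbers share no stated culture or batch and did not pair: over windows of 1 Mb the differences between replicates 1 and 2 correlated between the days at r = 0.003.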

Additional observations from a re-analysis of the deposited data

How the results depend on the processing

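The gene test at equal numbers of positions called 0 genes; it called 96 in random draw 3, 811 on all positions, 59 on positions with at least 2 reads, 284 with all 8 day libraries and 11 with DESeq2, and 0 to 0 with 1 library left out. Of 88 windows of 100 kb, random draw 2 and random draw 3 kept 1 each, reads 1, positions with at least 2 reads 0, library totals 0, no filter 0, at least 20 positions 0 and DESeq2 2. Windows of 50 kb gave 7 calls, of which 5 begin where 1 of those 88 begins, while leaving out 1 library gave 0 to 0. More were called on all positions (2241), with DESeq2 size factors (246), all 8 day libraries (595), a replicate block (550), the saturation offset (261) and as 1 Mb windows (637). The 637 windows of 1 Mb became 1021 on all positions and 84 with DESeq2, and 375 to 509 with 1 library left out. The 811 genes on all positions became 534 with at least 20 positions, 346 with DESeq2, 405 among genes that overlap no other, and 190 to 412 with 1 library left out. The replicate block gave 0 genes at equal numbers, 628 windows of 1 Mb and 587 genes on all positions; the libraries share only a number. By reads, the difference was 1.37 percentage points for coding gene bodies and 0.918 for the least labelled quintile, and the correlation was 0.846 between the day 0 libraries, 0.968 between the day 4 libraries and 0.855 across days; on all positions it was 0.977 between the day 4 libraries and 0.876 across days. Of the shares of gene and window classes, that of coding genes over 500 kb turned sign, from 0.0578 percentage points to -0.0290 by reads. Other random draws of the 1 Mb windows gave like counts but not all the same windows. Random draw 2 called 582, of which 451 were among the 637, and random draw 3 called 681, of which 508 were. Library totals called 573, all among the 637. With no filter, 405 genes on all positions were higher and 295 lower, against 330 and 481. Among refits of the named genes, 742 counted as unchanged, 100 lost the call and none changed the sign of a called gene. A change of sign in a gene not called in the main fit counted as unchanged. Dnmt3l, such a gene, had log2 changes from -0.67 to 0.95 with 1 library left out. Of the refits of the named 100 kb windows, 65 kept and 139 lost the call. The alternatives of the 1 Mb windows and of all positions, and the saturation offset, were chosen after seeing the data. With 2 libraries a day, and 383292 positions on day 0, many short genes held too few positions to be tested, and no depth match could separate day from library complexity. The cause of each change was not tested.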
